A study of Arabidopsis thaliana with 2 samples.

Results

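The wide LHY regions are the stretches of at least 1000 bp in a list of regions where an antiserum against LHY pulled down more DNA from wild-type than from lhy-21 seedlings of Arabidopsis thaliana. They were picked by width alone, and 561 of the 14718 regions in the list, or 3.81%, reached that limit. The other 14157 regions are called narrower here, of which 3067 were 500 to under 1000 bp wide and 11090 were under 500 bp. LHY is a MYB-type transcription factor that accumulates around dawn and, with its close relative CCA1, forms the morning part of the plant circadian clock. It is known mainly as a repressor of genes expressed later in the day, many of which carry a sequence called the evening element near their start. Besides other clock genes, its known targets include genes of cold response, flowering and hormone signalling.

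Chromatin immunoprecipitation followed by sequencing was done on 2 genotypes in the Ws background, wild type and the LHY knock-out line lhy-21. Both were whole seedlings, 2 weeks old and taken 2 h after dawn, so many cell types were mixed in each. Tissue was fixed in 1% formaldehyde for 10 min, sheared to fragments of 100 to 1000 bp and incubated with antiserum to the full-length protein. Each genotype gave 1 library that pooled 9 immunoprecipitated samples, and the authors merged the contrast of wild type over lhy-21 into 1 list, so no value has a replicate check and nothing was tested. Regions and scores are theirs, and positions are on TAIR9, a Columbia genome, whereas the plants were Ws; the part this difference plays was not tested. Protein-coding genes came from a RefSeq gene table that gives no strand. A gene end can therefore be the start or the finish of a gene, and the flank is the 1000 bp outside either end. Width and score come from the same contrast, so the scores of wide regions are described and support nothing.

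The median width was 1188 bp among wide regions, which spread from 1000 to 3023 bp (quartiles 1080 and 1396 bp), and 274 bp among narrower regions (quartiles 166 and 461 bp). The wide class covered 723 kb, or 13.1% of all base pairs in the list, and narrower regions covered 4775 kb. Most wide regions sat close to the limit, since 271 reached 1200 bp, 99 reached 1500 bp, 18 reached 2000 bp and 6 reached 2500 bp. The lower limit equals the upper end of the fragment sizes, and the share that fragment length has in a region's width was not tested.

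The authors' score has no stated scale and served only to rank regions. Its median was 54.5 in wide regions (quartiles 34.6 and 79.3, range 3.51 to 213) and 9.72 in narrower regions (quartiles 5.60 and 20.1, range 2.00 to 177). Regions of 500 to under 1000 bp lay between, with a median of 32.1. Of the wide regions, 506 (90.2%) stood in the upper quartile of all scores, at 22.3 or more, against 3174 narrower regions (22.4%). Of the strongest regions, however, most were narrower. Only 4 of the 10 strongest regions were wide, as were 35 of the strongest 100 and 168 of the strongest 561. Within the wide class, width and score were nearly unrelated, with a Spearman correlation of 0.08 over 561 regions of the same pair of libraries. The same coefficient was 0.32 over the 3067 regions of 500 to under 1000 bp and 0.73 over the whole list.

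**Figure D1:**
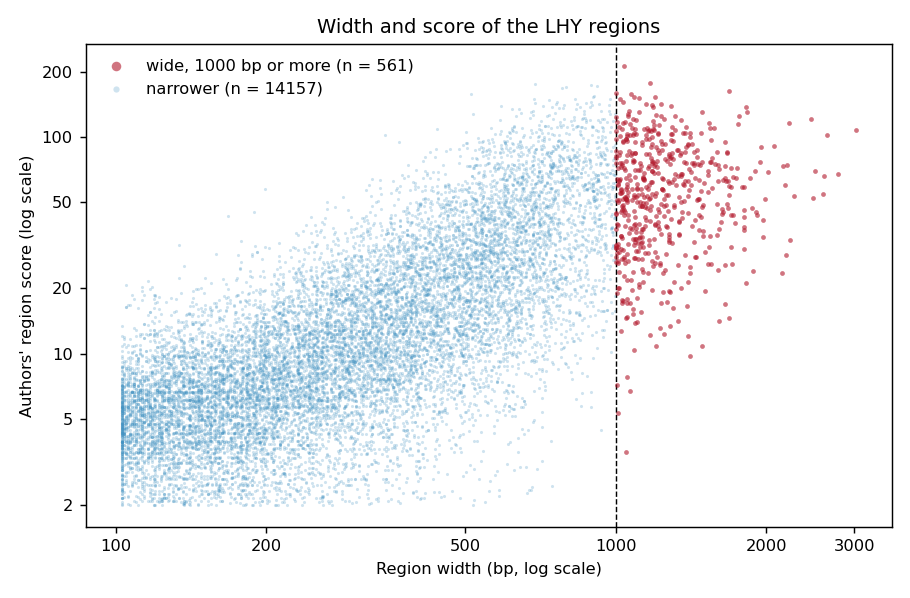
Width in bp against the authors' score for each region, both axes on log scales, with wide regions in red and narrower regions in blue. Scores climb with width below 1000 bp (dashed line), while the 561 wide regions form a cloud with a median score of 54.5 and little slope.

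Median scores on both sides of the limit were close, at 53.6 for 1000 to 1499 bp and 48.7 for 750 to under 1000 bp, as the plot of score against width shows. Just inside it, at 1000 bp, stood a region crossing an end of FLA17, a fasciclin-like arabinogalactan protein, with a score of 37.6. At the same width, a region between NIK3, a receptor-like kinase, and ACLA-2, a subunit of ATP citrate lyase, scored 98.4, and 1 on chromosome 1 from 4087103 to 4088102 with no gene in reach scored 44.4. Just outside, 1 bp short of the limit, regions at AT4G32340, at LKP2, a relative of the clock photoreceptor FKF1, and at AT5G43830 scored 91.9, 52.7 and 18.4. The lowest score of any wide region, 3.51, belonged to a stretch of 1048 bp in the flank of HAB1, a phosphatase of abscisic acid signalling. That value lies below the median of narrower regions, and the next lowest wide regions scored 5.35 and 6.73.

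The widest region of all, 3023 bp at chr3:1725976-1728998 with a score of 108, held the whole of AIF1, a basic helix-loop-helix protein that binds the brassinosteroid regulator ATBS1. It reached 1808 bp into sequence outside genes. It was followed by 2783 bp at chr5:23225208-23227990 with a score of 67.2, mostly inside AT5G57340, with 2040 bp in the gene. Next was the 2648 bp region beside RVE1, a MYB-type relative of LHY that links the clock to auxin, at chr5:5692943-5695590 with a score of 102. It touched only 50 bp of RVE1 and ran 2598 bp out from it.

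The other 7 of the 10 widest lay at 4 genes with a symbol in the gene table and at loci for which it gives none. A region of 2485 bp with a score of 52.1 lay at BBX28, a B-box protein of seedling light responses. OXS3, named for oxidative stress tolerance, had 2461 bp with a score of 121. At NAC083, a NAC-family factor, the region was 2279 bp wide and scored 53.2. TRP1, a telomere repeat binding protein, had 2229 bp with a score of 33.5. Loci without a symbol in the gene table were AT1G11200 and AT1G11210, which shared 2608 bp with a score of 65.8. The others were AT4G33980 with 2604 bp and 54.6, and AT5G25280 with 2500 bp and 69.4. In 7 of the 10, more base pairs lay outside genes than inside.

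None of the 10 widest was among the 10 wide regions of highest score, which were mostly close to the width limit. First came 1041 bp at chr5:22935900-22936940, with a score of 213, across the whole gap between AT5G56670 and SYNC1, a cytosolic asparaginyl-tRNA synthetase. It was followed by 1171 bp at chr4:15185053-15186223 with a score of 179, at AT4G31290 and over the whole of AT4G31280. A locus named for embryo-defective mutants, emb2746, had 1683 bp with a score of 163, and FIB, a fibrillin of plastid lipid bodies, had 1002 bp with a score of 160. FQR1, an auxin-induced quinone reductase, had 1087 bp with a score of 154. The rest, with scores of 157 to 146, lay at AT5G59990, between G6PD5, a glucose-6-phosphate dehydrogenase, and PUX1, between AT2G02750 and UBC2, a ubiquitin-conjugating enzyme, at NET3A, an actin-binding protein, and between AT4G18230 and SS4, a starch synthase. Widths in these ran only up to 1683 bp, whereas the 10 widest were at least 2229 bp.

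Wide regions stood less often over gene bodies and more often beside them than narrower regions did. The centre of the region lay inside a protein-coding gene in 98 of 561 wide regions, 17.5% (exact Clopper-Pearson 95% interval 14.4 to 20.9, for counting error only), against 35.5% (34.7 to 36.3) of narrower regions. Outside genes but within 1000 bp of a gene end were 62.2% (58.1 to 66.2) of wide centres, against 47.6% (46.7 to 48.4) of narrower centres. Farther away were 20.3% (17.1 to 23.9) of wide centres and 17.0% (16.4 to 17.6) of narrower centres. Of the base pairs of the chromosomes, 54.1% lie inside such genes, 20.4% in the flanks and 25.5% farther away.

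**Figure D2:**
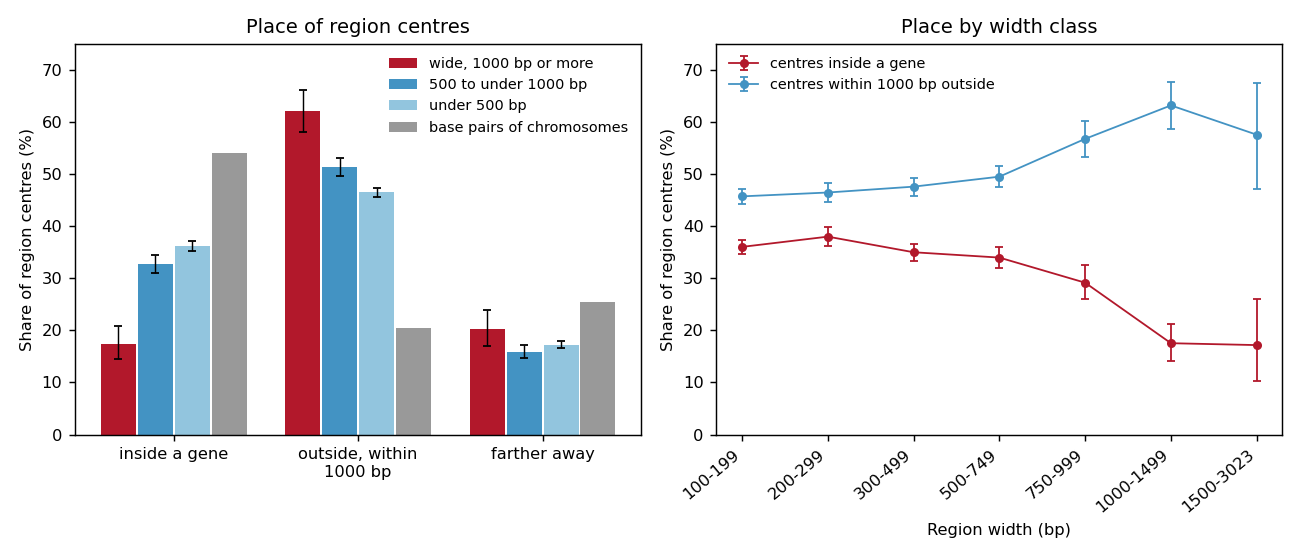
Left, percent of region centres by place, for wide regions (red), regions of 500 to under 1000 bp and under 500 bp (blues) and base pairs of the chromosomes (grey). Right, the share inside genes (red) and in flanks (blue) by width class in bp; bars on points and columns are exact 95% intervals, and the share inside genes is 29.2% at 750 to under 1000 bp and 17.5% at 1000 to 1499 bp.

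By width class, the share of centres inside genes was 36.0% at 100 to 199 bp, 38.0% at 200 to 299 bp, 35.0% at 300 to 499 bp and 34.0% at 500 to 749 bp. It was 29.2% at 750 to under 1000 bp, 17.5% at 1000 to 1499 bp and 17.2% at 1500 bp and over. The plot by width class thus shows a level stretch up to 749 bp and lower values above it, in which the limit of 1000 bp falls after the first lower value. Counting every base pair in place of the centre, 29.2% of wide and 37.4% of narrower region sequence lay inside genes. With every region cut or extended to 1000 bp around its centre, the share was 26.2% for wide and 41.7% for narrower regions, so the order was the same at equal length.

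The same order was seen among regions of high score. In the upper quartile of scores, 90 of 506 wide centres, 17.8% (14.6 to 21.4), lay inside genes, against 35.1% (33.5 to 36.8) of 3174 narrower centres and 34.0% of those 500 to under 1000 bp wide. In the next quartile down, the share was 16.3% (7.32 to 29.7) of 49 wide centres and 35.4% of narrower ones. Below that only 6 wide regions were left. On each of the 5 chromosomes, wide centres were inside genes less often, at 20.5, 23.2, 12.9, 14.1 and 16.8% on chromosomes 1 to 5, against 35.9, 34.8, 35.9, 34.1 and 36.1% of narrower centres.

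Centres of wide regions lay farther from gene ends, outside genes and inside them. Among centres outside genes, the median distance to the nearest gene end was 465 bp for wide and 383 bp for narrower regions. It did not rise steadily with width, at 408 bp for regions under 500 bp and 322 bp for those of 500 to under 1000 bp. Among centres inside genes, the median depth was 247 bp for wide and 168 bp for narrower regions. Coverage by wide regions, as fold over their share of all base pairs, peaked at 2.79 in the bin 400 to 500 bp outside a gene end and was 1.87 in the first 100 bp. Coverage by narrower regions peaked at 3.13 in the first 100 bp and was 1.85 at 400 to 500 bp. At 2000 to 2100 bp the fold was 1.87 for wide and 1.16 for narrower regions. Coverage counts every base pair, so longer regions spread it over more distance by their length, and the part of length in it was not tested. Deep inside genes, 900 to 1000 bp from an end, both were low, at 0.18 for wide and 0.27 for narrower regions. Very distant regions were scarce in both classes, with 2.50% of wide and 2.70% of narrower centres over 3000 bp from a gene.

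**Figure D3:**
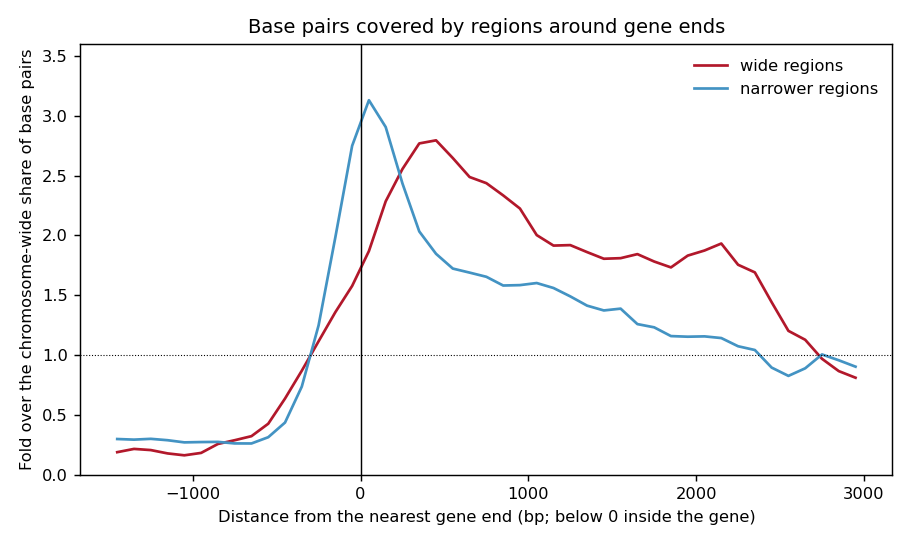
Coverage of base pairs by wide regions (red) and narrower regions (blue) in bins of 100 bp by distance from the nearest end of a protein-coding gene, below 0 inside the gene, as fold over each class's share of all base pairs (dotted line at 1). The red curve peaks at 2.79 between 400 and 500 bp outside and the blue curve at 3.13 next to the gene end.

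As deposited, 399 wide regions (71.1%) touched a protein-coding gene and 110 (19.6%) touched at least 2, against 55.4% and 7.02% of narrower regions. Longer intervals meet more genes by their length. Once all were set to 1000 bp around the centre, the order turned, and 61.0% of wide regions touched a gene against 71.5% of narrower regions, with at least 2 genes touched by 12.3% against 19.3%. In total, 505 genes were touched by wide regions. A single gene end was crossed by 264 wide regions (47.1%), against 30.4% of narrower regions. A whole gap between neighbouring genes was spanned by 97 (17.3%) against 4.95%, and 162 (28.9%) against 44.6% lay wholly outside genes. With all set to 1000 bp, 43.1% of wide and 45.2% of narrower regions crossed 1 end. A gap was then spanned by 10.3% of wide and 15.9% of narrower regions, and 39.0 and 28.5% lay wholly outside. Wholly inside genes were 26 wide regions, or 4.63%, against 19.9% of narrower regions, and with all set to 1000 bp the shares were 6.06% of wide and 9.61% of narrower regions.

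Where a wide region crossed 1 gene end, most of it lay outside. The median was 337.5 bp inside and 862 bp outside, and 216 of these 264 regions (81.8%) had more sequence outside than inside. In regions of 500 to under 1000 bp that crossed 1 end, the medians were 268 bp inside and 384.5 bp outside, with 63.1% mostly outside. The gaps between genes that held the centres were of like size, with a median of 2535 bp (quartiles 1158 and 4543 bp) for 463 wide regions and 2628 bp (1248 and 4881 bp) for narrower regions. Wide regions filled a median of 43.0% of their gap, regions of 500 to under 1000 bp 23.0% and all narrower regions 10.3%. With gaps of like size, this share restates the width by which the regions were picked.

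Wholly inside wide regions stood 12 genes, each in a region of its own, and most were short. A whole gene was thus held by 2.14% of wide regions, against 0.148% of narrower regions. With all set to 1000 bp, the shares were 1.43% of wide and 0.756% of narrower regions. RCI2A, a small membrane protein induced by cold, is 1428 bp long, AIF1 is 1215 bp and ELF4, a component of the evening complex of the clock, is 660 bp. The 9 others, named only by locus, ran from 126 to 1331 bp. The longest of these were AT1G11210, AT3G15440 with 712 bp and AT4G33960 with 615 bp, followed by AT3G15635, AT5G15853, AT4G31280 and AT3G49115 with 391 to 201 bp. At least 3 genes were touched by 19 of 14157 narrower regions, and at 1000 bp each by 67 narrower and 3 wide regions. Touching 3 genes as deposited were 6 of 561 wide regions. The region over RCI2A, 2207 bp at chr3:1755247-1757453 with a score of 74.7, also reached APC11, a subunit of the anaphase-promoting complex, and RCI2B, a close relative of RCI2A. Another, 1293 bp with a score of 139, joined AT1G72600, the germin-like gene GER1 and AT1G72620. Another, of 1240 bp with a score of 93.2, joined SCRL22, AT4G33467 and the histone deacetylase gene HDA14. The remaining 3 lay at COL1, AT5G15853 and PCME, at AT5G66052, AT5G66053 and AKRP, and at AT3G15430, AT3G15440 and AT3G15450.

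**Figure D4:**
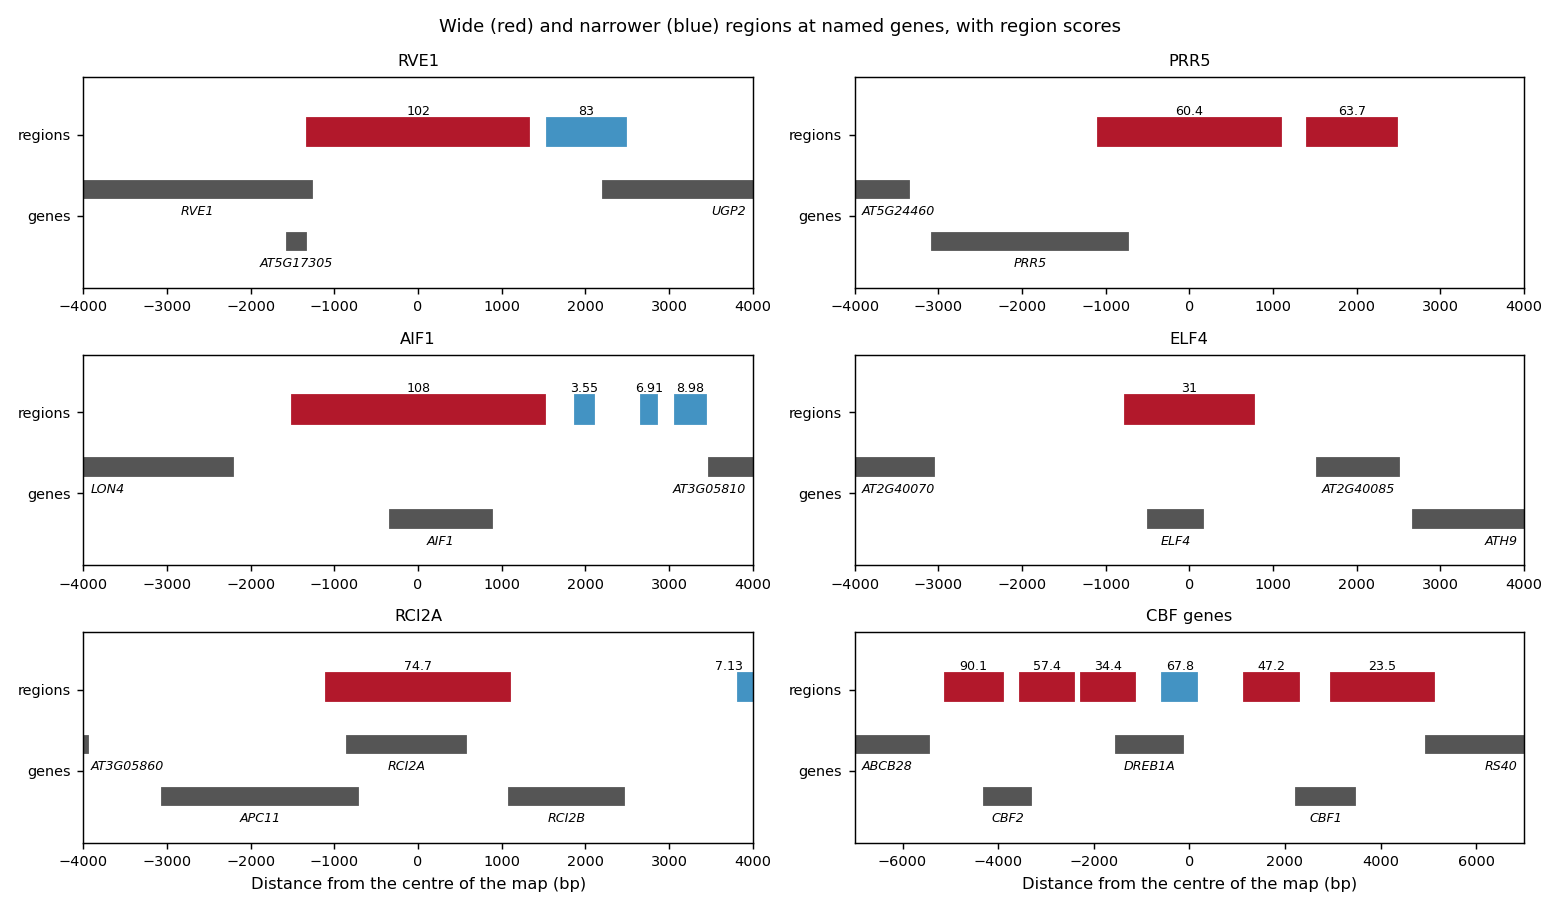
Wide regions (red) and narrower regions (blue) with their scores above, and protein-coding genes (grey) on 2 rows below, by distance in bp from the centre of each map. The region at RVE1 leaves the gene and runs toward UGP2, those at AIF1, ELF4 and RCI2A hold whole genes, and 5 wide regions stand over the CBF genes, where DREB1A is CBF3.

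A wide region lay in the gene or its flank for 782 of 27444 protein-coding genes (2.85%), and a region of any width for 12343 (45.0%). Where 1 region reached several genes, each gene was counted, and which of them LHY acts on cannot be told from a list. Of 9 evening clock genes, expressed from the afternoon into the night, 4 (44.4%, exact 95% interval 13.7 to 78.8) had a wide region, and all 9 had a region. The widest, of 2184 bp with a score of 60.4 at chr5:8358190-8360373, lay at PRR5, a pseudo-response regulator that represses LHY and CCA1. It covered 357 bp of the gene, and another wide region of 1069 bp with a score of 63.7 stood next to it, beyond the flank. GI, a regulator of clock proteins and flowering, had 1679 bp with a score of 46.8 at chr1:8060523-8062201.

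FKF1, a blue-light receptor that targets flowering repressors for breakdown, had 1609 bp with a score of 37.7 at chr1:25507950-25509558, over 40.5% of the gene. ELF4 lay whole in a region of 1537 bp with a score of 31.0 at chr2:16734021-16735557. These 4 widths were all above the upper quartile of wide regions, 1396 bp, while 3 of the 4 scores were below the wide median of 54.5. The 5 other evening genes, given here to account for the list, had narrower regions. TOC1, the evening repressor of CCA1 and LHY, had 984 bp with a score of 15.4. The evening-complex gene LUX and its relative BOA had 923 bp with 67.1 and 930 bp with 85.2. ELF3 and PRR3 had 767 bp with 91.2 and 600 bp with 93.8. These are the widest regions at each gene, and all but that at TOC1 scored above each of the 4 wide regions. TOC1 and ELF3 had 2 regions each and BOA had 3, and the scores of their other regions were not compared.

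Among 13 morning and day clock genes, 4 (30.8%, 9.09 to 61.4) had a wide region and 12 had any. RVE1 had the region described above. PRR9, the first pseudo-response regulator of the day, had 1453 bp with a score of 81.2 at chr2:19231620-19233072, in reach of AT2G46780 too. PRR7, which follows it, had 1121 bp with a score of 34.5 at chr5:641356-642476, and RVE7, another MYB-type relative of LHY, had 1062 bp with a score of 66.8 at chr1:6307876-6308937. Of the members without a wide region, RVE2 had 800 bp, LNK3 632 bp and LNK4 521 bp. The region at LHY itself, the gene altered in lhy-21, was 516 bp wide with a score of 55.9. The widest at LNK1, LNK2, CCA1 and RVE4 ran from 381 to 165 bp, and none was listed at RVE8.

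Of 23 cold and dehydration response genes, 8 (34.8%, 16.4 to 57.3) had a wide region and all had a region of some width. The interval takes genes as independent, although some neighbours in this list share a wide region. COR28 was not matched by symbol to the gene table, so it is not counted here. CBF1, CBF2 and CBF3 (DREB1A in the gene table) encode the AP2-type factors that switch on cold-induced genes, and they stand in tandem on chromosome 4. The widest region there was 2148 bp with a score of 23.5, between CBF1 and RS40. At CBF2 it was 1207 bp with a score of 90.1. RAV1, a factor repressed by brassinosteroids, had 1700 bp with a score of 58.8, 959 bp from the gene, and another of 1034 bp with a score of 30.1 that crossed an end of it, at chr1:4541346-4542379. COR27, a cold-induced repressor of evening clock genes, had 1181 bp with a score of 75.8. Named after their values were seen, CBF3, CBF4, COR47 and ERD10 made up the rest, the last 2 sharing 1022 bp with a score of 55.4. ERD7 at 998 bp and RD29B at 974 bp, likewise named afterwards, fell just short.

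Of 17 flowering-time genes, 5 (29.4%, 10.3 to 56.0) had a wide region and 14 had any. COL5, a CONSTANS-like gene, had 1661 bp with a score of 62.9, and COL1, another of that family, had 1131 bp with 32.7. SOC1, a MADS-box integrator of flowering signals, had 1423 bp with a score of 38.8. CDF1, a repressor of CONSTANS that is removed by FKF1 and GI, had regions of 1187 and 1152 bp with scores of 109 and 102. The fifth, named after its values were seen, was TOE1, a repressor of flowering, with 1046 bp and a score of 70.8. Over the members of these 4 lists that had a region, the median of the widest was 984 bp for evening clock, 576.5 bp for morning and day clock, 904 bp for cold and 846.5 bp for flowering genes. Over all protein-coding genes with a region it was 378 bp. The other lists were above that value too, from 440 bp for housekeeping reference genes to 714 bp for starch metabolism.

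**Figure D5:**
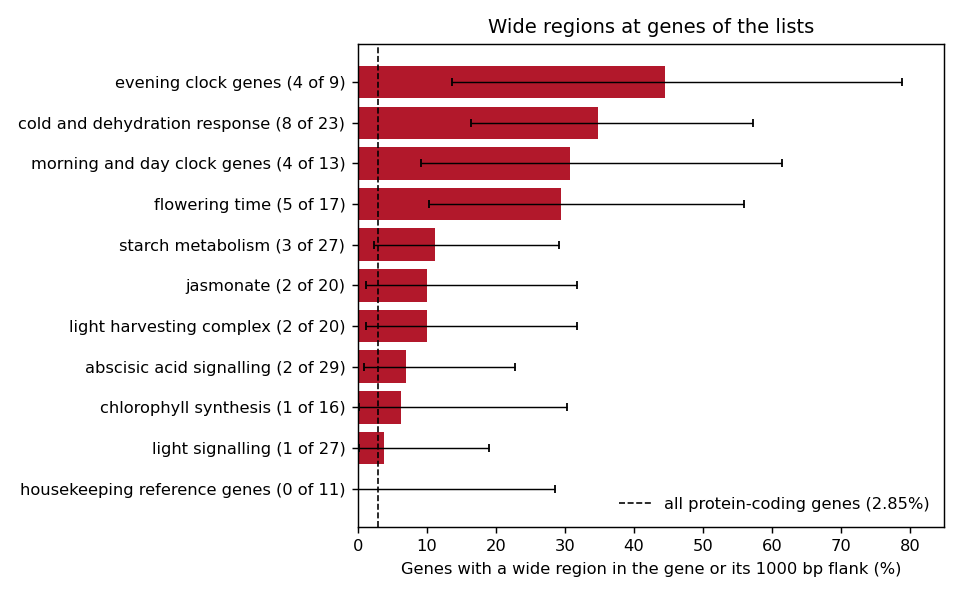
Percent of the genes of each list with a wide region in the gene or its 1000 bp flank, with exact 95% intervals, beside 2.85% of all protein-coding genes (dashed line). At the limit of 1000 bp, clock, cold and flowering lists stand at 29.4 to 44.4% and the other 7 at 0 to 11.1%, with intervals that are broad and overlap in such short lists.

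At this limit the other lists had a lower share of members with a wide region, as the plot of lists shows, but the order of the lists depended on it. At 800 bp, starch metabolism stood at 40.7%, above morning and day clock genes at 38.5%. At 1200 bp, the shares were 15.4% for morning and day clock, 13.0% for cold and 11.8% for flowering genes, beside 10.0% for light harvesting genes and 44.4% for evening clock genes. With regions within 200 bp merged first, abscisic acid signalling stood at 24.1% and light signalling at 22.2%. The share of all protein-coding genes was 5.57% at 800 bp, 1.42% at 1200 bp and 4.62% after merging. At 1000 bp, starch metabolism had 3 of 27, which were DPE1, a disproportionating enzyme, with 1229 bp, BAM4, a regulatory beta-amylase-like protein, with 1212 bp, and SS4 with 1034 bp. The starch phosphorylase gene PHS2, named after its value was seen, fell short at 978 bp. Of 20 light harvesting genes, 2 shared 1 region of 1408 bp with a score of 104, the tandem neighbours LHCB1.4 and LHCB1.5, with RWA3 also in reach. Of 20 jasmonate genes, 2 repressors had one, JAZ1 with 1380 bp and a score of 111 and JAZ2 with 1009 bp and 60.7. In abscisic acid signalling 2 of 29 genes had one, the phosphatases ABI2, with 1715 bp and a score of 65.5 at a distance of 316 bp from the gene, and HAB1. Chlorophyll synthesis had 1 of 16, HEMA1, its first committed enzyme, with 1048 bp. Light signalling had 1 of 27, the blue-light receptor CRY1, with 1200 bp.

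None of 11 housekeeping reference genes had a wide region, beside 2.85% of all protein-coding genes, and 10 had a narrower one. The exact interval for 0 of 11 reaches 28.5% and includes the share over all genes, so this count does not set the list apart from them. The widest of the narrower regions at these genes was 779 bp with a score of 94.3, at the tubulin gene TUB4. Together, 32 of 212 list genes (15.1%) had a wide region and 191 (90.1%) had any. As a share of genes with any region, wide ones came to 16.8% in the lists and 6.34% over all genes. The lists were drawn up with earlier results of these data known, so this is a description and not evidence of a preference.

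The nearest other region was a median of 634 bp away, edge to edge, for wide and 983 bp for narrower regions. A neighbour stood within 1000 bp of 336 wide regions, 59.9% (55.7 to 64.0), and of 50.3% (49.5 to 51.2) of narrower ones. Within 200 bp the shares were alike, at 24.1% for wide and 24.0% for narrower regions. Counting only regions at or above the median score, a neighbour within 1000 bp was found for 38.9% of wide and 27.2% of narrower regions. All these distances run from edge to edge, so longer regions come closer to a neighbour by their length. The part of length in them was not tested. Counted by centres, the mean number of other regions within 5000 bp was 2.453 for wide and 2.204 for narrower regions. The order was the other way round for sharing a gap between genes. Another centre lay in the same gap for 49.2% of wide and 55.9% of narrower centres outside genes. Wide regions filled a median of 43.0% of their gap and narrower regions 10.3%, and the part of this in the order was not tested.

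Some wide regions neighboured each other, with 44 adjacent pairs within 5000 bp, edge to edge, that took in 84 wide regions (15.0%). A region of any width stood within 5000 bp, also edge to edge, of 89.1% of wide and 83.7% of narrower regions. How many wide pairs such dense spacing gives by itself was not tested. The 84 formed 38 groups of 2, 1 group of 3 at AT1G76580 and AT1G76590, and 1 group of 5. The last covered the CBF genes, over 10.2 kb at chr4:13014425-13024652. Its regions were 1207, 1123, 1131, 1156 and 2148 bp wide, with scores of 90.1, 57.4, 34.4, 47.2 and 23.5 in order along the chromosome. The first crossed an end of CBF2, the second stood on its other side toward CBF3, the third crossed an end of CBF3, the fourth an end of CBF1, and the fifth filled the gap from CBF1 to RS40. A narrower region of 734 bp with a score of 67.8 lay in the middle, as the map of these genes shows. The CBF genes are closely similar copies, as are LHCB1.4 and LHCB1.5, and reads shared between such copies make the regions there uncertain; their part was not tested.

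Chosen after their values were seen, 23 genes had 2 wide regions in the gene or its flanks. They included CDF1, RAV1, the 3 tandem CBF genes and CRF2, a cytokinin response factor, with 1056 and 1215 bp and scores of 103 and 104. BT1, a BTB-domain scaffold protein, had 1444 and 1974 bp, both with a score of 41.5. HSFA6B, a heat stress factor induced by abscisic acid, had 1494 and 1029 bp with scores of 48.8 and 48.1. GRF1, a growth-regulating factor, had 1199 and 1027 bp with scores of 39.1 and 57.1. At FBA5, a fructose-bisphosphate aldolase, they were 1310 and 1457 bp with scores of 21.4 and 51.1. Among the 23, the widths of a pair differed most in bp at CBF1, with 1156 and 2148 bp.

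Along the genome, wide regions were sparsest on chromosome 2. There were 5.13, 3.50, 4.31, 4.95 and 5.30 of them per Mb on chromosomes 1 to 5, and they made up 3.91, 2.92, 3.68, 4.13 and 4.21% of the regions there. The interval for chromosome 2, 2.28 to 3.68%, overlaps those of all 4 others. In the 239 of 1193 bins of 100 kb with the fewest genes, 17 or fewer each, stood 12 wide regions, 2.14% (1.11 to 3.71), against 4.18% (3.86 to 4.52) of narrower regions. These bins hold 6.15% of protein-coding genes. Among regions of 500 to under 1000 bp the share there was 3.65% (3.02 to 4.38), an interval that overlaps that of wide regions.

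Non-coding genes were touched by 82 wide regions (14.6%) and by 6.17% of narrower regions. At an equal length of 1000 bp, the shares were 11.6% for wide and 11.1% for narrower regions, which differ by little. In all, 89 of 10455 non-coding genes (0.851%) were touched by a wide region. Long non-coding RNAs made up 63 of them, from 3480 in the gene table, and 58 wide regions reached one. Of the short RNA classes, 5 of 625 tRNA genes, 1 of 326 microRNA genes, MIR847, and 1 of 82 small nuclear RNA genes, U2.5, were touched. Of 3917 pseudogenes none was touched by a wide region and 22 by a region of any width, and of 926 transcribed pseudogenes 1, AT5G23235, was touched by a wide region and 42 by a region of any width. Many long non-coding RNAs overlap protein-coding genes or run against them, and ChIP does not tell strands apart.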

How the data were processed

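The wild-type and lhy-21 libraries were processed by the authors with Bowtie and MACS2 2.0.10.09132012 on TAIR9, per the submitters' processing notes. Read depth, filters and the calling threshold are not given in the sources used here. The authors deposited a score for each region, with no statement of its scale, and here it was used for ranks and descriptions within the list.

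Python 3.11.15 with NumPy 2.4.6, pandas 2.3.3 and SciPy 1.17.1 was used, and figures were drawn with matplotlib 3.10.9. Region starts were counted from 1, the width was end minus start of the deposited list, and a region's place was that of its midpoint. Genes came from a RefSeq table of assembly TAIR10.1, with 27444 nuclear protein-coding genes. Nuclear sequence did not change between TAIR9 and TAIR10, but gene models may differ. As a check, the share of all centres inside genes was 34.8% as placed and 47.2 to 58.0% when centres were moved by 500 or 1000 bp to either side, and on each chromosome it was lowest unmoved.

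Of 220 symbols in 11 lists, 6 were not matched and were left out (RVE6, COR28, CDF5, EF1A, TIP41 and SAND). This gave 212 distinct genes. A clock gene was named if it had a wide region in the gene or its flank. Of other lists the 4 members with the widest such regions were named. Also named were the genes at the 10 widest and 10 highest-scoring wide regions, at those touching the most genes, at the 3 on either side of the width limit, and up to 10 lying wholly inside. The members, lists and rules were chosen with earlier results of these data known. Intervals are exact 95% (Clopper-Pearson) and cover counting error only, and counting steps were tested on simulated data. The alternatives changed the width limit, the flank, the overlap, the score floor, the merging of regions and the extent compared. Motifs were not analysed here.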

Additional observations from a re-analysis of the deposited data

How the results depend on the processing

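The number of wide regions follows the limit, with 1122 at 800 bp, 271 at 1200 bp, 99 at 1500 bp, and 910 once regions within 200 bp were merged first. The share of wide centres in flanks was 57.6% at a limit of 1500 bp, 43.5% with flanks of 500 bp, 80.0% with flanks of 3000 bp and 49.1% counted over base pairs. Wide regions touching a gene came to 65.6% with an overlap of at least 100 bp and 61.0% resized to 1000 bp. The median score of wide regions was 58.8 at 1500 bp and 46.9 after merging. A neighbour within 1000 bp was found for 73.7% at 1500 bp and 38.9% among regions at or above the median score. List genes with a wide region came to 29.7% at 800 bp, 8.49% at 1200 bp, 4.25% at 1500 bp and 22.6% after merging, against 5.57, 1.42, 0.51 and 4.62% of all genes. Wide regions touching a non-coding gene came to 11.0% at 800 bp, 18.1% at 1200 bp and 21.2% at 1500 bp. The other 27 of 48 alternatives left a share or median within its 95% interval, or gave 555 regions (at or above the median score) and 495 (at a gene or its flank) in place of 561. At each of these limits, flanks, score floors and merging settings, the share of wide centres inside genes, 14.0 to 22.7%, was below that of narrower centres, 34.9 to 35.9%, and over base pairs it was 29.2% against 37.4%. Comparing within score quartiles and leaving out wide regions far from genes were chosen after seeing the data. No paired analysis was possible because each genotype had 1 library and only their merged list was used. A motif search was not run, since no sequence was used here. With 1 library per genotype and depth not given, variation between plants was not measured, and a width near 1000 bp may fall on either side of the limit.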

Other observations

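Wide regions farther from genes were also present. Chosen after their values were seen, the 5 farthest from a protein-coding gene were centred between 4473 and 6515 bp away. The farthest was 1166 bp wide with a score of 33.7, at chr2:13230923-13232088. The next, of 1094 bp at chr3:8594552-8595645, scored 94.7, and the third, of 1047 bp at chr1:10695242-10696288, scored 98.1. Both of these scores lie above the upper quartile of wide regions, 79.3.

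Genes with a wide region in the gene or its flank carried a symbol of their own more often than others did. The share was 49.1% of 782 such genes, 44.0% of 11561 genes with narrower regions only and 32.5% of 15101 genes with no region. Median gene lengths were 2337 bp with a wide region, 2301 bp with narrower regions only and 1884 bp with no region. The closest pair of wide regions, 1144 and 1408 bp wide with scores of 42.6 and 99.9, stood 54 bp apart on chromosome 5 from 23163798 to 23166403.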
